A study of Mus musculus with 15 samples.

Results

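The transcript levels of 8 mouse genes that join FoxO signalling, muscle atrophy and the cell cycle brake were followed in heart tissue: the transcription factors Foxo1 and Foxo3, the sestrin Sesn1, the ubiquitin ligases Trim63 and Fbxo32, and the genes Cdkn1a, Mdm2 and Ccng1. They were taken by symbol, and 8 of 8 were listed among 12386 named genes. The RNA came from whole hearts of male C57BL/6 mice, with rRNA removed, and was sequenced as 15 libraries of 5 mice per group. Control mice carry that treatment label alone. AngII mice were infused with angiotensin II, the vasoconstrictor hormone of the renin system. AngII+QDG mice received QDG in addition. QDG is known here only by its abbreviation, and the dose and duration of both agents and the age of the mice are not given here. No allele, transgene or Cre is named for any group. The values were FPKM (fragments scaled to transcript length in kilobases and to library size), read as such from the values and summed per gene over its Ensembl transcripts. The study asked which genes differ between the groups and in which pathways they lie.

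FoxO factors are transcription factors that the insulin and growth factor pathway holds in check. When Akt phosphorylates them they leave the nucleus, and when Akt is quiet they switch on genes of protein breakdown, stress resistance and cell cycle arrest. Trim63 (MuRF1) and Fbxo32 (atrogin-1) are striated muscle ubiquitin ligases, classed as atrophy genes and known as FoxO targets. Sesn1 codes for sestrin 1, which restrains mTORC1 and is a target of both FoxO and p53. Cdkn1a (p21) inhibits cyclin-dependent kinases, Mdm2 is the ligase that degrades p53, and Ccng1 (cyclin G1) recruits a phosphatase to Mdm2. All of these last genes are known p53 targets, and p53 and FoxO share Cdkn1a. Phosphorylation and nuclear location, the usual steps of FoxO control, are not visible in transcript levels.

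Promoter sequences were read for 7 of the 8 genes from RefSeq tables on GRCm38.p6, as the 250 bases before each annotated start, which gave 9 windows. Those that held a searched FoxO or p53 motif are printed 5′ to 3′ on the strand of the gene, because these factors define the gene set, and capitals mark the match. The Trim63 window is chr4:134314870-134315119 on the plus strand, Mdm2 is chr10:117710759-117711008 on the minus strand, Ccng1 is chr11:40755287-40755536 on the minus strand, and the upstream start of Cdkn1a is chr17:29090729-29090978 on the plus strand.
Trim63: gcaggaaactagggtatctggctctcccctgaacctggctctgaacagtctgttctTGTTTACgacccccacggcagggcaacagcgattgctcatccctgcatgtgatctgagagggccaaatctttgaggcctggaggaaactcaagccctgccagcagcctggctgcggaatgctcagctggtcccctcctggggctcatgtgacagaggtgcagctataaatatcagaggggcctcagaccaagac
Mdm2: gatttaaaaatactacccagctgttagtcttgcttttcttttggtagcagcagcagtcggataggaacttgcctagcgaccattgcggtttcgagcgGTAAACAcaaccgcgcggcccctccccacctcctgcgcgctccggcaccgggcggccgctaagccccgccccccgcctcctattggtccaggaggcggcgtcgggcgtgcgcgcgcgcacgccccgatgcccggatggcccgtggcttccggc
Ccng1: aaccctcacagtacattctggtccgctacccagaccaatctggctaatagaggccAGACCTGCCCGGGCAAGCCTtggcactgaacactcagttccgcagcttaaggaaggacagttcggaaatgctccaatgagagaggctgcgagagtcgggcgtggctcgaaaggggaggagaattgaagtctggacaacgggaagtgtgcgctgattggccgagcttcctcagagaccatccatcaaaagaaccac
Cdkn1a: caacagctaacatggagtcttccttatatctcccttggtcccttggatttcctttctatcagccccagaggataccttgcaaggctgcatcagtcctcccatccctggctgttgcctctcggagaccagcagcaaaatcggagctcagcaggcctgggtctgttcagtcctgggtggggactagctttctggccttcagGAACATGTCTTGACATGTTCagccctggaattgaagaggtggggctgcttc
The FoxO core GTAAACA, searched on both strands, stood in the Trim63 window as TGTTTAC, 194 to 188 bases before the start, and in the Mdm2 window as GTAAACA, 153 to 147 bases before the start. That motif occurred in 3.17% of the 32851 mouse promoter windows of the same length. The FoxO variant CAAAACA occurred in 5.56% of those windows and in 0 of the 9 windows. The p53 response element, a run of 20 bases made of a pair of half-sites with no spacer, was searched on both strands with up to 1 mismatch outside the fixed C and G bases. It stood in 0.0578% of all windows, and in the Ccng1 window, 195 to 176 bases before the start, and the upstream Cdkn1a window, 51 to 32 bases before the start, with 1 mismatch each. The nearest start of a Cdkn1a transcript listed in the files lies 2790 bases from that upstream start. No 2 matches overlapped, and a match describes letters in a window, not binding.

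The libraries were 51.6 to 78.33 times 1000000 fragments deep, if 1 step of the low values is 1 fragment, with group means that did not pass a test of difference (smallest exact two-sided permutation p = 0.294, adjusted p = 0.597 over 33 library tests). The 8 of 8 cardiomyocyte markers were listed, and their summed level was 27006 to 35792 FPKM in Control, 28436 to 32028 in AngII hearts and 21093 to 37324 in AngII+QDG. Of 6 skeletal muscle markers 0 were listed. Skeletal muscle also expresses Trim63 and Fbxo32, but a gene that is not listed has no value, which is not a level of 0. The share of skeletal muscle in the samples was not tested. Control libraries gave relatively more signal to short transcripts: the mean log2(FPKM + 1) of transcripts under 1000 nt minus that of transcripts of at least 3000 nt was 1.02 to 1.46 in Control, 0.79 to 0.99 with AngII and 0.67 to 0.91 with AngII+QDG. Control did not overlap with either infused group (exact two-sided permutation p = 0.00794, the smallest 5 against 5 can give; adjusted p = 0.0873 for each). The share of transcripts listed at 0 averaged 12.1% in Control, 5.94% with AngII and 5.53% with AngII+QDG, and was highest in Control replicate 5 at 20.6%. These values moved with both comparisons to Control, and their part in the results was not tested. In whole tissue, fewer cells of a type and less RNA per cell cannot be told apart.

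Levels per length spanned 2 orders of magnitude among the genes. Over the 15 libraries, Ccng1 averaged 157 FPKM, above 97.1% of the named genes, followed by Trim63 at 76.1, Sesn1 at 37.7 and Cdkn1a at 31.8 FPKM. Mdm2, Fbxo32 and Foxo3 lay close together at 9.46, 8.81 and 7.88 FPKM, within each other's spread, and so did Sesn1 and Cdkn1a within Control and within AngII. Foxo1 was lowest, at 1.30 FPKM, above 22.0% of the named genes. Cdkn1a ranked above Sesn1 in Control and below it in AngII+QDG.

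**Figure D1:**
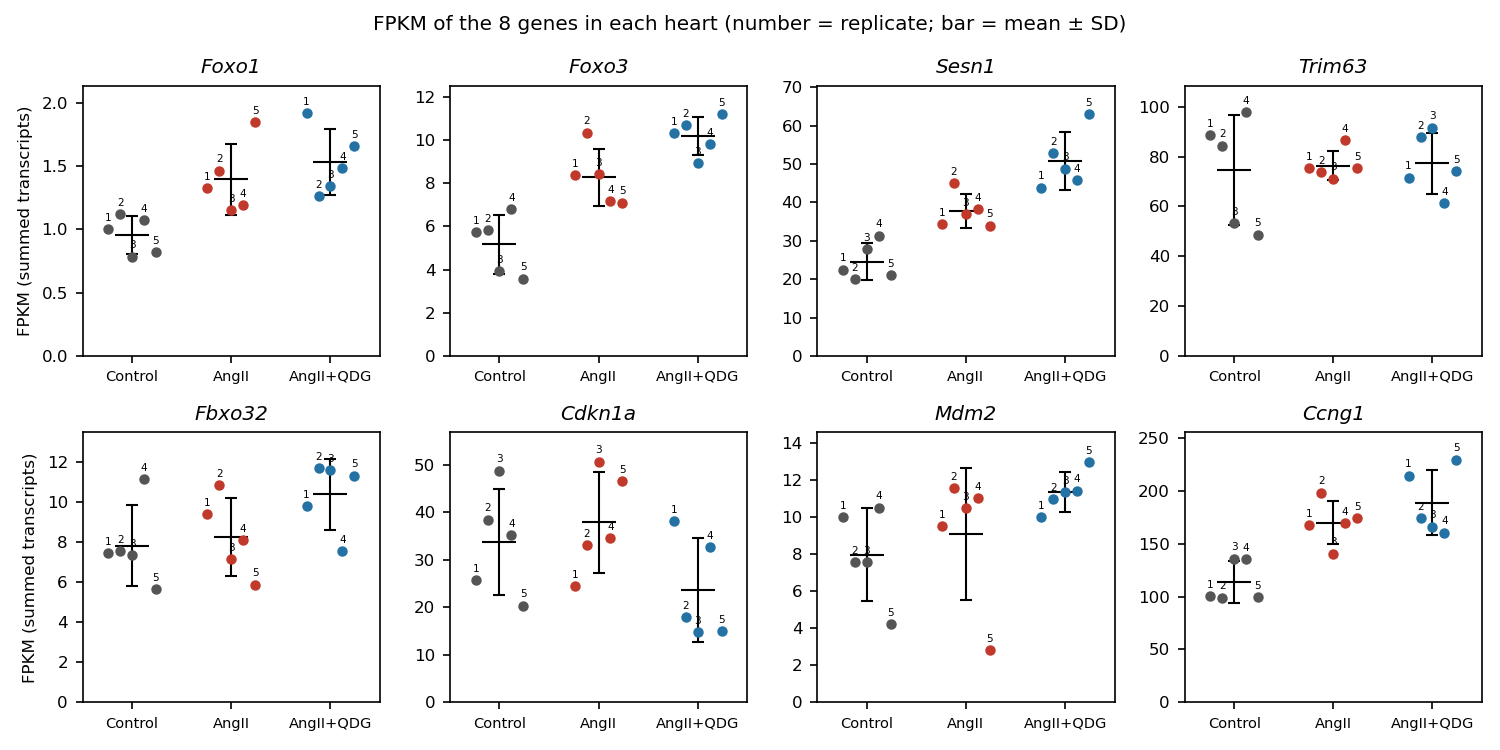
FPKM of each of the 8 genes in every library, one panel per gene, with a numbered point per replicate and the group mean ± SD as bars (n = 5). Foxo1, Foxo3, Sesn1 and Ccng1 have all 5 AngII and all 5 AngII+QDG libraries above the 5 Control libraries. Of all genes, 10.1% lay higher without overlap in AngII and 12.8% in AngII+QDG, each against Control. Mdm2 has a single low library in each of Control and AngII.

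AngII hearts were compared with Control hearts to find what the infusion changes. Foxo3, Sesn1 and Ccng1 rose, 3 of the 8 genes, and 0 of the 8 fell. The other 5 genes did not pass the test. Across all 12262 genes tested, 13.3% were called at an adjusted p of at most 0.05 (limma on log2(FPKM + 1), Benjamini-Hochberg), 11.9% as higher in AngII and 1.48% as lower. The libraries of the groups did not overlap for 4 of the 8 genes, the 3 named and Foxo1, all higher in AngII, where 11.1% of all genes did not overlap and 10.1% lay higher. The median log2 difference of the 8 was 0.23, beside 0.20 for all genes. Relative to the median of all genes, Foxo3 and Sesn1 differed by 0.41 each, Ccng1 by 0.38 and Foxo1 by 0.087. Trim63 (-0.11), Fbxo32 (-0.13), Cdkn1a (-0.020) and Mdm2 (-0.095) lay below that median.

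Foxo3, the FoxO factor with the higher level of the pair, was 5.73, 5.82, 3.94, 6.81 and 3.58 FPKM in the Control replicates and 8.37, 10.3, 8.42, 7.16 and 7.10 FPKM in the AngII replicates. The AngII+QDG replicates held 10.3, 10.7, 8.92, 9.81 and 11.2 FPKM. Every infused heart, with or without QDG, lay above every Control heart, and Control replicates 3 and 5 were the lowest. The means were 5.18 ± 1.37, 8.28 ± 1.31 and 10.2 ± 0.87 FPKM (SD, n = 5), a 1.60-fold rise with AngII and a 1.97-fold rise with AngII+QDG over Control. The log2 difference was 0.61 ± 0.15 (SE, adjusted p = 0.0265) for AngII and 0.88 ± 0.15 (adjusted p = 0.00363) for AngII+QDG, or 0.41 and 0.71 above the median of all genes. The larger of the 2 listed transcripts, ENSMUST00000105502 of 6848 nt, carried most of the level, and its own test gave log2 differences of 0.59 (adjusted p = 0.0586) and 0.95 (adjusted p = 0.00658). The smaller, ENSMUST00000105501 of 1316 nt, averaged 0.377, 0.690 and 0.225 FPKM in Control, AngII and AngII+QDG. Its log2 differences from Control were 0.31 (adjusted p = 0.250) and -0.17 (adjusted p = 0.556), which did not pass.

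Foxo1 read 1.00, 1.12, 0.79, 1.07 and 0.82 FPKM in Control and 1.33, 1.47, 1.15, 1.19 and 1.85 FPKM in AngII. Under AngII+QDG it read 1.92, 1.26, 1.34, 1.49 and 1.66 FPKM. The infused hearts again lay above the Control hearts without overlap, at about 1 FPKM, where the added constant of 1 compresses a fold change. The difference between AngII and Control did not pass (log2 0.29 ± 0.11, adjusted p = 0.0952), and that between AngII+QDG and Control did (log2 0.37 ± 0.11, adjusted p = 0.0326), with 1.46-fold and 1.60-fold higher means. The call did not hold without Control replicate 3 (adjusted p = 0.0735), Control replicate 5 (0.0585), or AngII+QDG replicates 1 (0.0858), 4 (0.0550) or 5 (0.0694), each left out in turn. When a trend with transcript length was taken out of each library, the log2 difference was -0.10 for AngII and -0.07 for AngII+QDG against Control, and the cause of that turn was not tested.

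Sesn1, the sestrin under both FoxO and p53, was 22.5, 20.003, 27.9, 31.3 and 21.1 FPKM in Control and 34.3, 45.0, 36.9, 38.2 and 34.0 FPKM in AngII. It was 43.8, 52.9, 48.7, 45.8 and 62.9 FPKM in AngII+QDG, where replicate 5 was highest. The infused hearts all exceeded Control, and the lowest AngII+QDG heart lay just under the highest AngII heart. The means of 24.6 ± 4.86, 37.7 ± 4.45 and 50.8 ± 7.57 FPKM (SD, n = 5) gave 1.53-fold with AngII and 2.07-fold with AngII+QDG over Control. The log2 differences were 0.61 ± 0.14 (adjusted p = 0.0195) and 1.03 ± 0.14 (adjusted p = 0.00139), the lowest adjusted p of the 8 genes in both comparisons. Set against AngII, the AngII+QDG hearts differed by log2 0.42 ± 0.14 (95% interval 0.13 to 0.71; unadjusted p = 0.00826, adjusted p = 0.764), which did not pass.

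Sesn1 has a pair of listed transcripts with separate starts. The shorter, ENSMUST00000041438 of 2600 nt, carried 90.5% of the Control level, and averaged 22.2 ± 5.08, 31.5 ± 4.76 and 43.8 ± 5.80 FPKM in Control, AngII and AngII+QDG. The longer, ENSMUST00000099931 of 3809 nt, averaged 2.33 ± 1.48, 6.19 ± 1.30 and 7.07 ± 2.23 FPKM and was 0.0432 FPKM in Control replicate 5. In the fit of 21550 transcripts both passed between AngII+QDG and Control, with log2 differences of 0.97 (adjusted p = 0.00463) and 1.41 (adjusted p = 0.0236). Neither passed between AngII and Control (0.50, adjusted p = 0.0779, and 1.26, adjusted p = 0.0550). Whether the transcripts differ in their change was not tested.

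**Figure D2:**
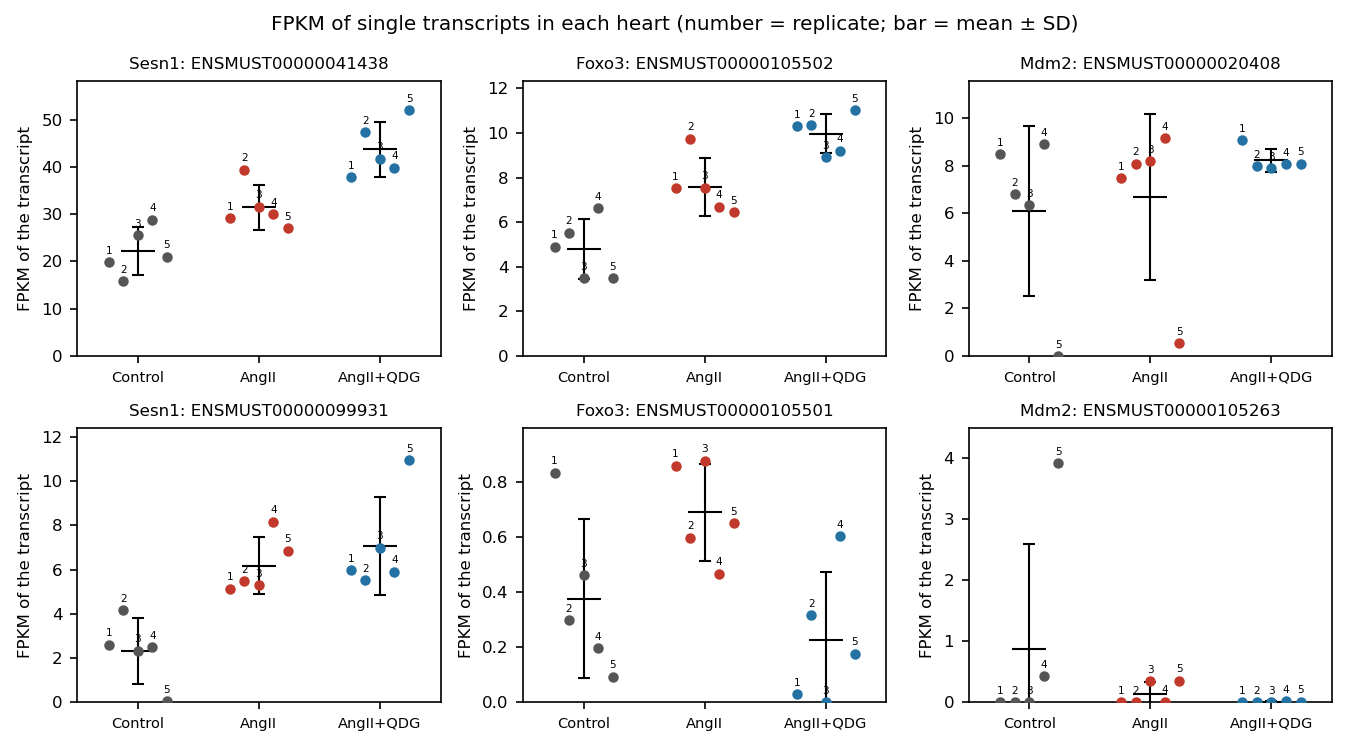
FPKM of 2 transcripts each of Sesn1, Foxo3 and Mdm2 in every library, with a numbered point per replicate and the group mean ± SD (n = 5). The Sesn1 transcript of 2600 nt carries most of the gene's level in all groups, and the Mdm2 transcript of 3099 nt is at 0 FPKM in Control replicate 5 and 0.544 FPKM in AngII replicate 5.

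The atrophy ligases did not pass any of the 3 comparisons. Trim63 was 88.7, 84.4, 53.4, 97.8 and 48.6 FPKM in Control and 75.4, 73.7, 71.1, 86.7 and 75.2 FPKM in AngII. In AngII+QDG it was 71.6, 87.7, 91.6, 61.3 and 74.2 FPKM. The group means were 74.6 ± 22.1, 76.4 ± 5.99 and 77.3 ± 12.4 FPKM, all overlapping, and Control replicates 3 and 5 were the low libraries of the most spread group. The log2 differences were 0.09 ± 0.18 (95% interval -0.30 to 0.47) for AngII and 0.09 ± 0.18 for AngII+QDG, both against Control, and their sign was negative under median scaling (-0.17 for each). Fbxo32 ran from 5.65 through a median of 7.43 to 11.1 FPKM in Control, from 5.86 through 8.07 to 10.8 with AngII, and from 7.54 through 11.3 to 11.7 with AngII+QDG. Its log2 difference was 0.07 ± 0.18 (adjusted p = 0.810) between AngII and Control, negative under median scaling (-0.19). Between AngII+QDG and Control it was 0.38 ± 0.18 (95% interval -0.01 to 0.77; adjusted p = 0.153), and passed with Control replicate 4 left out, the highest Control library (0.50, adjusted p = 0.0468). These intervals still allow changes of up to about 0.47 on the log2 scale in either ligase with AngII.

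Of the p53 branch, Ccng1 passed against Control and Cdkn1a and Mdm2 did not. Cdkn1a, the kinase inhibitor p21, was 25.8, 38.5, 48.8, 35.3 and 20.3 FPKM in Control and 24.5, 33.2, 50.7, 34.6 and 46.6 FPKM in AngII. In AngII+QDG it was 38.2, 17.9, 14.8, 32.6 and 14.98 FPKM. AngII+QDG replicates 2, 3 and 5 lay below every other library, and replicates 1 and 4 lay within the range of the other groups. The mean was 33.7 ± 11.1 FPKM in Control, 37.9 ± 10.7 with AngII and 23.7 ± 10.95 in AngII+QDG. AngII+QDG against AngII thus gave a log2 difference of -0.72 ± 0.30 (95% interval -1.36 to -0.08; unadjusted p = 0.0298, adjusted p = 0.967), which did not pass. AngII+QDG replicates 1 and 4 were also the shallowest libraries at depths of 52.36 and 51.6 in the same unit, and were the lower 2 of their group for Sesn1, Trim63 and Fbxo32; the part of depth in this was not tested.

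Mdm2, which degrades p53, was 9.99, 7.57, 7.56, 10.51 and 4.21 FPKM in Control and 9.50, 11.55, 10.48, 11.03 and 2.82 FPKM in AngII. In AngII+QDG it held 9.99, 10.96, 11.33, 11.42 and 12.98 FPKM. Replicate 5 was the lowest library in both Control (4.21 against 7.56 FPKM in the next lowest) and AngII (2.82 against 9.50 FPKM). Only the gap in AngII is flagged as standing apart below. The AngII+QDG libraries ran from 9.99 to 12.98 FPKM. The main transcript, ENSMUST00000020408 of 3099 nt, was listed at 0 FPKM in Control replicate 5 and at 0.544 in AngII replicate 5, beside 6.34 to 8.90 FPKM in the other Control libraries and 7.47 to 9.17 in the other AngII libraries. In Control replicate 5 the nearly equal-length ENSMUST00000105263 (3145 nt) held 3.92 FPKM, where the other Control libraries held 0 to 0.432; in AngII replicate 5 it held 0.357. The log2 difference of the gene was 0.11 ± 0.29 (adjusted p = 0.835) between AngII and Control, negative under quantile and median scaling (-0.12 and -0.15), and 0.43 without AngII replicate 5 (adjusted p = 0.174). Between AngII+QDG and Control it was 0.51 ± 0.29 (adjusted p = 0.242); 1 minor transcript listed in the AngII+QDG files alone, ENSMUST00000137102, adds 0.470 ± 0.306 FPKM there, and over shared transcripts the difference was 0.45.

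Ccng1, the most abundant of the 8, was 100.3, 98.8, 136, 135 and 99.4 FPKM in Control and 167, 198, 140.4, 169 and 174 FPKM in AngII. It was 214, 174, 166, 160.3 and 229 FPKM in AngII+QDG. No infused heart fell to the Control range, although AngII replicate 3 came close. The means of 114 ± 19.7, 169.8 ± 20.5 and 189 ± 31.0 FPKM gave 1.49-fold with AngII (log2 0.58 ± 0.14, adjusted p = 0.0217) and 1.66-fold with AngII+QDG over Control (log2 0.72 ± 0.14, adjusted p = 0.00478). Ccng1 therefore rose in both comparisons while Cdkn1a and Mdm2, known targets of the same factor, did not pass in either, and the difference between these genes was not tested.

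The calls between AngII and Control rested on few libraries. Without AngII replicate 2, the highest AngII library for Foxo3, Sesn1 and Ccng1, the adjusted p was 0.0688, 0.0539 and 0.0593, 0 of the 8 genes passed and 2.38% of all genes did; Foxo3 also missed without Control replicate 3 (0.0585). The share of all genes called was 20.3% without Control replicate 4 and lay between 3.87% and 8.01% without Control replicates 2, 3 or 5 or AngII replicates 1, 4 or 5, each left out in turn. With the balance of short and long transcripts as a covariate the log2 differences were 0.12, 0.53 and 0.37 (adjusted p = 0.942, 0.890 and 0.904), and 0% of all genes passed. Summed smooth muscle and pericyte markers (6 of 6 listed) ran from 248 to 370 FPKM in AngII and from 150.5 to 255 in Control (exact two-sided permutation p = 0.0238, adjusted p = 0.157); the part of these values in the result was not tested.

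**Figure D3:**
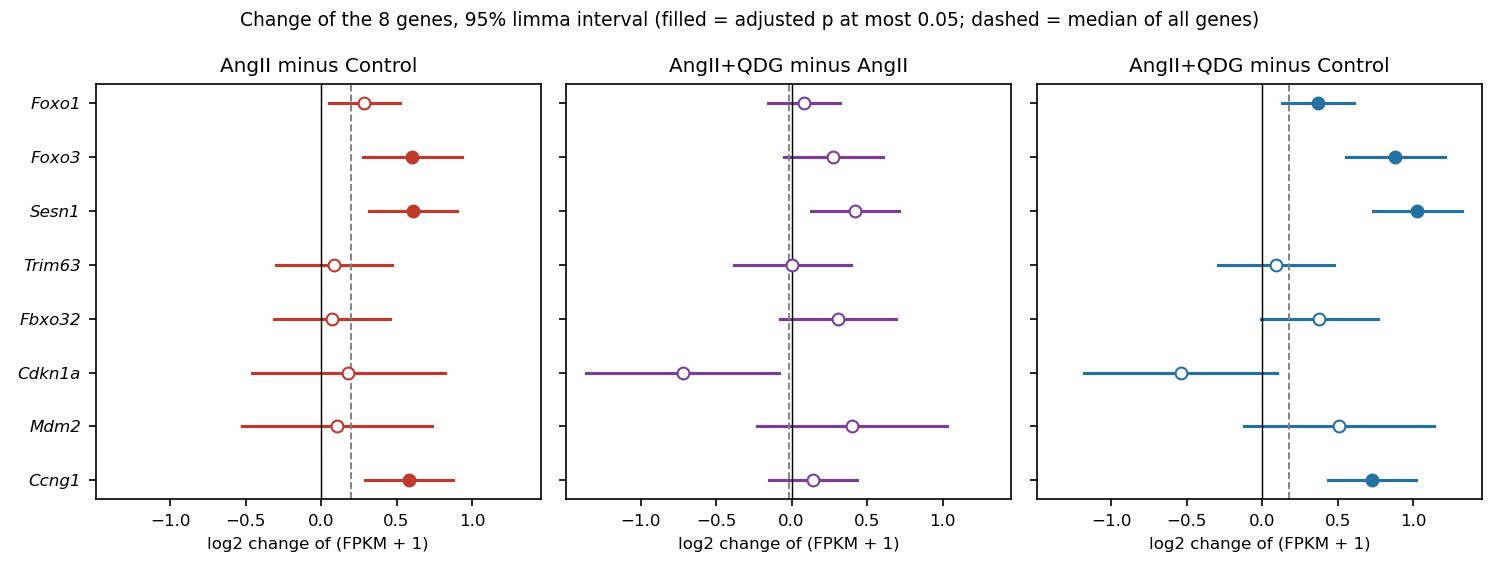
Log2 difference with its 95% interval for each of the 8 genes in the 3 comparisons (filled points passed at an adjusted p of at most 0.05). Foxo3, Sesn1 and Ccng1 are filled in both comparisons to Control, Foxo1 in AngII+QDG against Control, and none is filled between AngII+QDG and AngII.

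AngII+QDG hearts were compared with AngII hearts to find what QDG changes under the infusion. The AngII+QDG libraries also carry a transcript list of their own, which coincides with QDG here and against Control. Of the 8 genes 0 passed, and 0% of all 12262 genes did. At an unadjusted p under 0.05 there were 2 of the 8, Sesn1 (higher) and Cdkn1a (lower), beside 579 of all genes. The other settings, voom on recovered fragments included, called 0 or 1 of all genes. All 8 genes overlapped between these groups, where 1.4% of all genes did not (0.603% higher). Foxo3 differed by 0.28 ± 0.15 (95% interval -0.05 to 0.61), Ccng1 by 0.14 ± 0.14 (-0.15 to 0.44), Fbxo32 by 0.31 ± 0.18 (-0.08 to 0.69) and Trim63 by 0.0047 ± 0.18 (-0.38 to 0.39) on the log2 scale. Foxo1 differed by 0.08 ± 0.11, and Mdm2 by 0.40 ± 0.29 (-0.23 to 1.03), or 0.083 without AngII replicate 5. The intervals leave room for a rise of about 0.6 in Foxo3, so the missing call does not show that the groups are alike.

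AngII+QDG against Control gave the most calls. Foxo1, Foxo3, Sesn1 and Ccng1 rose, 4 of 8, where 19.4% of all genes passed and 16.1% passed as higher and 3.31% as lower. The libraries of these 4 did not overlap (14.5% of all genes, 12.8% higher). Without AngII+QDG replicate 1 the share of all genes called was 11.9%, and 3 of the 8 passed. The median log2 difference of the 8 was 0.44, beside 0.18 for all genes. Foxo3, Sesn1 and Ccng1 passed in 28 of 29 other settings, the exception being the balance covariate (0.35, 0.94 and 0.50; adjusted p = 0.673, 0.361 and 0.631). Foxo1 passed in 15 of the 28 settings that tested it. Cdkn1a was the single gene with a lower mean (log2 -0.54 ± 0.30, adjusted p = 0.221). AngII and AngII+QDG were both set against the same 5 Control hearts, so the values of the 2 comparisons are not independent. Summed fibroblast markers (7 of 7 listed) ran from 257 to 384 FPKM in AngII+QDG and from 218 to 296 in Control (exact two-sided permutation p = 0.0476, adjusted p = 0.262), and their part in the result was not tested.

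**Figure D4:**
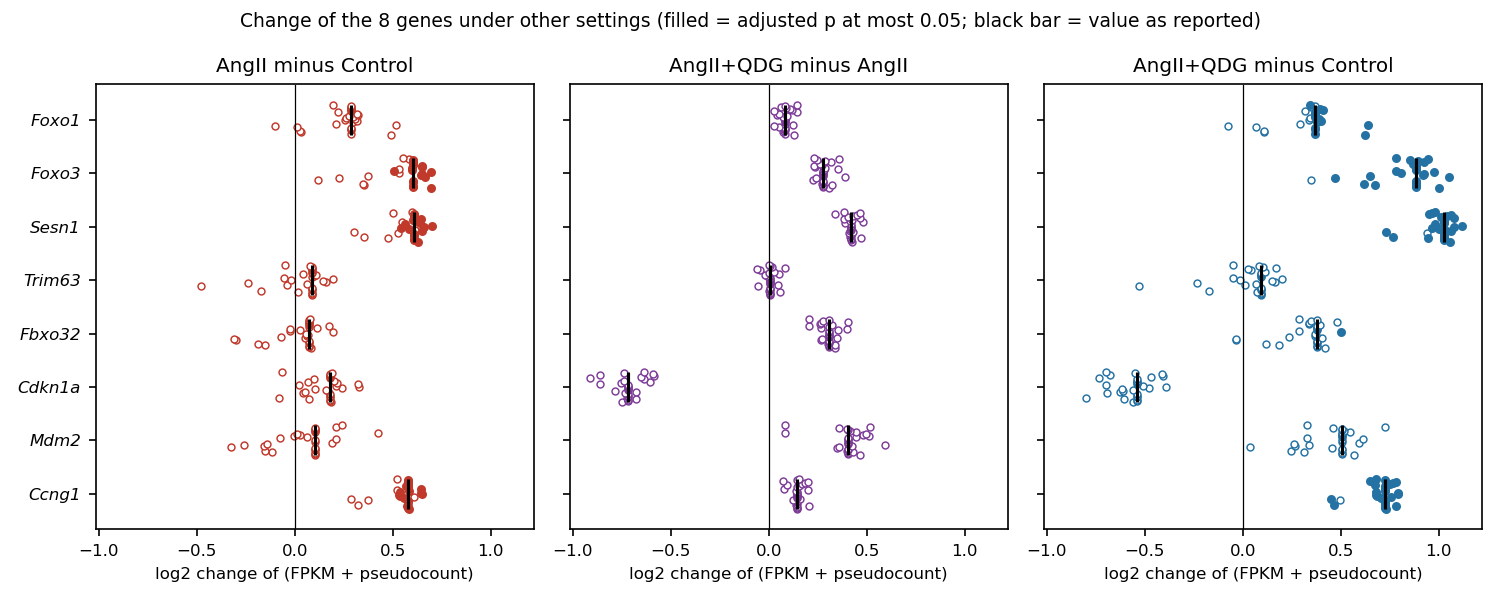
Log2 difference of each of the 8 genes under each alternative setting, for the 3 comparisons, with filled points where the adjusted p was at most 0.05 and a black bar at the reported value. Foxo3, Sesn1 and Ccng1 stay above 0 against Control in every setting run. Foxo1, Trim63, Fbxo32, Cdkn1a and Mdm2 fall on both sides of 0 between AngII and Control.

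Around these genes, 6 lists of related genes were read, each without the 8 members and each without a test of the list as a whole. Some genes, such as Fbxo30, Btg2, Cdkn1b and Ccng2, stand in more than 1 list and are counted in each. Against Control, 11.9% of all genes tested were called higher and 1.48% lower in AngII, and 16.1% higher and 3.31% lower in AngII+QDG. The list counts from the fit of all libraries stand beside these shares. Counts with libraries left out do not, because the share of all genes called moved as well, as given above for most of those settings. There, a change in a list count was not separated from that general change. Of the FoxO factors and their regulators, 11 of 23 tested were higher in AngII than Control and 0 lower, and 12 did not pass. In AngII+QDG 11 of 23 were higher and 0 lower. The list median was 0.49 and 0.41, beside 0.20 and 0.18 for all genes. Pdpk1, the kinase that activates Akt, rose by log2 0.82 (adjusted p = 0.0101), from 1.81 to 3.94 FPKM. Phlpp1, a phosphatase of Akt, rose by 0.62 (adjusted p = 0.0173), and Prkaa2, a catalytic subunit of AMPK, by 0.77 (adjusted p = 0.0202). In AngII+QDG against Control the 3 rose by 0.87, 0.74 and 0.85 (adjusted p = 0.00329, 0.00398 and 0.00676). Leaving out 1 library moved the AngII count to 1 without AngII replicate 2, 3 without AngII replicate 4 or 5, 4 without Control replicate 3 or 5, and 7 without Control replicate 2. The AngII+QDG count moved to 5 without AngII+QDG replicate 1, 6 without Control replicate 3 or AngII+QDG replicate 5, and 7 without AngII+QDG replicate 4. Without Control replicates 3 and 5 together, 0 of 23 passed in AngII and 4 of 23 in AngII+QDG, while 0.791% and 9.79% of all genes did.

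Of 34 other FoxO targets, 5 were higher and 1 lower in AngII, and 9 higher and 1 lower in AngII+QDG, each against Control, with list medians of 0.27 and 0.34. Txnip, which binds thioredoxin and limits glucose uptake, rose from 62.3 to 135 FPKM (log2 1.13, adjusted p = 0.0166) and to 195 FPKM with QDG added (log2 1.67 against Control, adjusted p = 0.00167). Pdk4, which shuts pyruvate dehydrogenase, rose from 19.9 to 42.5 FPKM (log2 1.17, adjusted p = 0.0262), and by log2 1.35 in AngII+QDG (adjusted p = 0.00823). Fbxo30, a ubiquitin ligase linked to muscle wasting, was the next of this list by p and is given with the ligases. The gene that fell was Insr, the insulin receptor, named after its values were seen. It averaged 3.52 ± 0.25 FPKM in Control and 1.33 ± 2.51 FPKM in AngII (SD, n = 5), a spread larger than the mean, with overlapping libraries (log2 -1.41, adjusted p = 0.0316). In AngII+QDG it averaged 0.149 ± 0.131 FPKM, with no overlap with Control (log2 -1.98, adjusted p = 0.00538). Without Control replicates 3 and 5 together 0 of the 34 passed in AngII, and 6 higher and 2 lower in AngII+QDG. The count higher in AngII was 1 without AngII replicate 2, 4 or 5, 2 without Control replicate 5, 3 without Control replicate 1 or 2 or AngII replicate 1, and 12 without Control replicate 4. The AngII+QDG count was 5 without AngII+QDG replicate 5 and 14 without Control replicate 4.

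The other muscle ubiquitin ligases and proteolysis genes gave 1 of 25 higher in AngII, Fbxo30 (log2 0.45, adjusted p = 0.0265; in AngII+QDG 0.58, adjusted p = 0.00538), and 0 lower. Traf6 and Nedd4, also ubiquitin ligases, had log2 values of 0.34 (adjusted p = 0.0504) and 0.57 (adjusted p = 0.0654). In AngII+QDG against Control, 3 of 25 were higher and 2 lower, Traf6 (log2 0.39, adjusted p = 0.0216) and Nedd4 (0.98, adjusted p = 0.00583) among the higher. The list medians were 0.28 and 0.24. The 2 lower, Psmb5 of the proteasome and Trim54, a sarcomere ligase related to Trim63, were named after their values were seen, with log2 differences of -0.39 (adjusted p = 0.0159) and -0.32 (adjusted p = 0.0358). Without Control replicate 4, 8 of 25 were higher in either comparison, where 20.3% and 24.7% of all genes were called. The count higher in AngII was 0 without AngII replicate 2, 4 or 5, and 2 without AngII replicate 3 or AngII+QDG replicate 2 or 4. The count lower in AngII+QDG was 1 without Control replicate 2 or 3 or AngII+QDG replicate 1, 4 or 5.

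Of 29 other p53 targets and regulators, 4 were higher and 1 lower in AngII, and 3 higher and 1 lower in AngII+QDG, with list medians of 0.27 and 0.26. Rrm2b, a subunit of ribonucleotide reductase, rose by log2 0.65 (adjusted p = 0.0243) and Btg2, an antiproliferative factor, by 1.13 (adjusted p = 0.0340). Dcxr, an enzyme of xylulose metabolism, fell by 0.55 on the log2 scale (adjusted p = 0.0320). In AngII+QDG against Control these 3 genes gave 0.87 (adjusted p = 0.00423), 1.05 (0.0312) and -0.48 (0.0389). Trp53, which codes for p53 itself, had a log2 difference of 0.13 (adjusted p = 0.700). Without Control replicates 3 and 5 together, 0 of 29 passed in AngII and 2 higher in AngII+QDG. The count higher in AngII was 0 without AngII replicate 4 or 5, 1 without Control replicate 1 or 5 or AngII replicate 2, 2 without Control replicate 3, AngII replicate 1 or 3 or AngII+QDG replicate 3 or 5, and 10 without Control replicate 4. In AngII+QDG it was 1 without Control replicate 5 or AngII+QDG replicate 2, 3 or 4, and 7 without Control replicate 4.

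The other cell cycle brakes gave 4 of 18 higher and 0 lower in AngII, and 6 of 18 higher and 0 lower in AngII+QDG, with list medians of 0.27 and 0.42. Tob1, an antiproliferative factor, rose by log2 0.79 (adjusted p = 0.0123), Wee1, the kinase that holds Cdk1 inactive, by 0.78 (adjusted p = 0.0148), and Rb1, the retinoblastoma protein, by 0.56 (adjusted p = 0.0168). In AngII+QDG against Control they rose by 0.90, 0.96 and 0.68 (adjusted p = 0.00294, 0.00296 and 0.00366). Without Control replicates 3 and 5 together 1 of 18 was higher in AngII and 5 of 18 in AngII+QDG, and without AngII+QDG replicate 5 alone 3 of 18 were higher in AngII+QDG. Of the 31 cell cycle drivers, 15 could be tested, with 2 higher in AngII and 3 in AngII+QDG, 0 lower in either, and 0 called without those 2 Control libraries. The list medians were 0.24 and 0.27. Ccnd1 (cyclin D1) rose by log2 0.86 (adjusted p = 0.0408) and E2f3 by 0.50 (adjusted p = 0.0302), while Cdk4, the kinase partner of cyclin D1, had a log2 difference of -0.38 (unadjusted p = 0.0256, adjusted p = 0.106) with a lower mean in AngII. In AngII+QDG against Control, Ccnd1 rose by 0.93 (adjusted p = 0.0213), and E2f3 (0.33, adjusted p = 0.101) and Cdk4 (-0.10, adjusted p = 0.686) did not pass. The count higher in AngII was 0 without Control replicate 3 or 5 or AngII replicate 1, 2, 4 or 5, and 1 without AngII+QDG replicate 2, 3 or 5. The AngII+QDG count was 0 without Control replicate 3 and 1 without Control replicate 1 or 2, AngII replicate 2 or 4, or AngII+QDG replicate 2, 3 or 5. Mki67, Top2a, Cdk1 and Ccnb1, markers of dividing cells, were among the 16 not tested. From AngII to AngII+QDG 0 genes of the 6 lists passed, as for all genes, with log2 differences of -0.18 (E2f3) to 0.53 (Txnip) among those named by p, and with the balance covariate 0 passed in any of them.

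**Figure D5:**
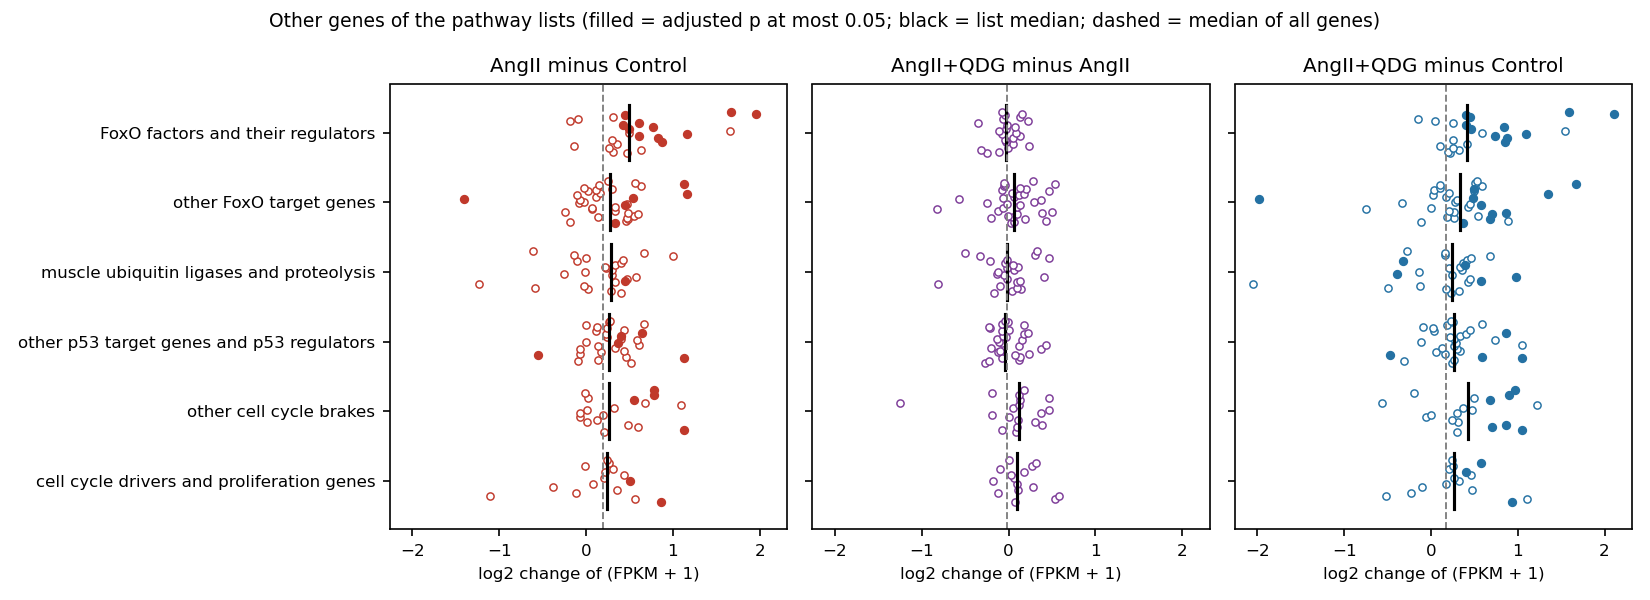
Log2 difference of every tested gene of the 6 lists in each comparison, filled where the adjusted p was at most 0.05, with the list median as a black bar and the median of all genes dashed. The FoxO factors and their regulators gave 11 of 23 higher in each comparison to Control, and every list gave 0 between AngII+QDG and AngII.

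The genes most like each member across the 15 libraries, by Pearson's r of log2(FPKM + 1) among 9285 named genes that averaged 1 FPKM or more, were found as a description. Foxo1 went with Rybp and Map3k1 (0.96 each), Foxo3 with Srsf5 (0.96) and Map3k5 (0.95), and Sesn1 with Cog5 and Fundc1 (0.96 each). Ccng1 had the closest partners, Pkia and Vps35 (0.98 each). Trim63 went with Klhl30 (0.91) and B4galt3 (0.90), Fbxo32 with Tmem220 (0.93) and Klhl38 (0.90), and Mdm2 with Tmem117 (0.92) and Pold3 (0.91). Cdkn1a had the loosest, Tef and Cnn1 (0.84 each). The libraries differ in short-against-long balance and fall into groups, and both are shared by all genes in these correlations.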

How the data were processed

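Heart RNA was extracted with Trizol and cleared of rRNA before NEB library construction, per the labels' protocols. For the aligner and quantifier the entry is: not given in the sources used here. GRCm38 and limma come from the submitters' processing notes. Each library's table, as the authors deposited it, holds FPKM per transcript, a unit read from the values because the headers do not state it. Ensembl transcripts were named with GENCODE M21 and summed to genes, and assembled transcripts (8634) were left out of the gene sums. FPKM times length fell within 0.1 of a whole step for 95.8 to 97.2% of values above 0 (99.0 to 99.7% up to 10 steps, chance 20%).

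The 12262 genes that reached 0.5 FPKM in 5 or more libraries, the 8 members among them, were tested on log2(FPKM + 1), a scale that understates the change of low genes. A single limma fit (3.58.1, under R 4.3.3; trend and robust options on) took in the 15 libraries, leaving 12 residual degrees of freedom. Benjamini-Hochberg adjustment ran over the whole table, with 0.05 as threshold. Nothing beyond the count of mice in the design text says how the samples were kept apart, so p-values measure the spread between these libraries. Reads shared with paralogs or pseudogenes could be split by the authors' counting. Plots and permutation tests used Python 3.11.15, numpy 2.4.6, pandas 2.3.3, scipy 1.17.1 and matplotlib 3.10.9. Of these steps, only the limma fit between AngII and Control was tested on simulated data, drawn independently for each gene and library.

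The members and lists were chosen with earlier results of these data known. Named from each list were the 3 tested genes with the smallest unadjusted p between AngII and Control, and for each member the 2 genes most like it. Settings tried were the pseudocount, the filter, scaling, 2-group fits, the replicate block, shared transcripts, the balance covariate, the length trend, limma voom on recovered fragments and libraries left out. The main transcript alone, and leaving out Control 5 with AngII 5, were chosen after seeing the data. Replicate numbers did not pair the libraries.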

Additional observations from a re-analysis of the deposited data

Results flagged for a closer look

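A library stood apart from the other 4 of its group in 2 of the 24 groups checked, 8 genes in 3 groups each, by a gap that exceeded the 95% critical value of Dixon's test (0.71 of the range for 5 libraries). Chance flags about 1 in 20 groups. Mdm2 was 2.82 FPKM in AngII replicate 5, against 9.50 FPKM in the next lowest, a gap of 0.765 of the range. Trim63 was 86.67 FPKM in AngII replicate 4, against 75.37 FPKM in the next highest, a gap of 0.726 of the range.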

How the results depend on the processing

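Of the 8 genes, the number called between AngII and Control (3) was 1 with quantile scaling, 0 with median scaling, 0 in a fit of those 2 groups, 1 with the replicate number as a block, 0 with the balance covariate, 0 with the length trend removed, 0 without Control replicates 3 and 5, 1 for the main transcript alone and 0 without Control 5 and AngII 5 together. Leaving out 1 library at a time gave 0 to 3. Between AngII+QDG and Control (4) it was 0 with the balance covariate and 3 to 5 with 1 library left out. It also fell below 4 in other settings, as Foxo1 passed in 15 of the 28 that tested it, 10 of them with 1 library left out. Between AngII+QDG and AngII it was 0 in all 29 settings. Replicate numbers did not pair the libraries (15 pairs, correlations from -0.11 to 0.083); with the replicate block, Foxo3 and Ccng1 missed between AngII and Control (adjusted p = 0.0518 and 0.0552), and Foxo1 missed between AngII+QDG and Control (adjusted p = 0.0608). The share of all genes called between AngII and Control was 13.3% in the main fit, 4.21% with the block, 0.791% without Control replicates 3 and 5 and 0% with the balance covariate. For the scaling, 2-group, length trend and main transcript settings, and without Control 5 and AngII 5 together, that share is not given here. There, fewer calls among the 8 cannot be told from fewer calls among all genes.

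The sign turned, as log2 values, in these settings; the cause was not tested. AngII against Control: quantile scaling, Fbxo32 -0.15, Mdm2 -0.12; median scaling, Trim63 -0.17, Fbxo32 -0.19, Cdkn1a -0.078, Mdm2 -0.15; covariate, Trim63 -0.48, Fbxo32 -0.30, Mdm2 -0.32; length trend removed, Foxo1 -0.10, Trim63 -0.039, Fbxo32 -0.31, Mdm2 -0.16; voom, Mdm2 -0.26; without Control replicates 3 and 5, Trim63 -0.24, Fbxo32 -0.071, Mdm2 -0.14; without Control 5 and AngII 5, Trim63 -0.048, Cdkn1a -0.064. AngII+QDG against AngII: covariate, Trim63 -0.053. AngII+QDG against Control: median scaling, Trim63 -0.17; covariate, Trim63 -0.53, Fbxo32 -0.033; length trend removed, Foxo1 -0.074, Fbxo32 -0.037; without Control replicates 3 and 5, Trim63 -0.23; without Control 5 and AngII 5, Trim63 -0.048. With 1 library left out, the log2 range between AngII and Control was -0.052 to 0.20 for Trim63, -0.022 to 0.19 for Fbxo32 and -0.078 to 0.43 for Mdm2. For Trim63 it was -0.060 to 0.083 between AngII+QDG and AngII and -0.048 to 0.20 between AngII+QDG and Control.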
